A study of Mus musculus with 9 samples.

Results

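The collagen and laminin genes of the mouse genome encode the structural proteins of the extracellular matrix, and 54 of the 22180 genes measured here belong to them. They were taken as every gene whose symbol reads Col, digits, a, digits, or Lama, Lamb or Lamc and a digit, among probe sets that the platform annotation gives to a single gene. They comprise 44 collagen and 10 laminin genes. Where several probe sets reported a gene (3 members), the brightest on average was used. No filter on low values was applied, so all 54 entered the test.

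The study measured total RNA of the anterior cingulate cortex, a frontal midline region, in C57BL/6J mice on 9 Affymetrix arrays, 3 for each of 3 groups. Ketamine mice received 3 mg/kg of ketamine, an anaesthetic that blocks NMDA-type glutamate receptors, by intraperitoneal injection at ZT5, where ZT counts hours after lights-on. Sleep-deprived mice were kept awake between ZT0 and ZT12 in a cage with a slowly turning bar, and the labels name no injection for them. Saline mice were injected with saline at ZT5, and tissue of all 3 groups was taken at ZT13. The titles call the replicates biological, and neither age nor sex is in the labels used here. The tissue was dissected whole between 1.34 and -0.5 mm of bregma, so it holds neurons, glia, vessels and whatever meninges stayed attached.

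Collagens are trimers of alpha chains. Fibrillar collagens build the tensile fibres of meninges and larger vessels, type IV collagen forms the sheet-like net of basement membranes, and type VI collagen forms beaded filaments around cells. Laminins, each assembled as an alpha, a beta and a gamma chain, make the other net of the basement membrane. In the brain these sheets surround endothelial cells and pericytes and separate both vessels and the pial surface from astrocyte endfeet.

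Values are the deposited probe set intensities, linear and without a unit. Differences between groups are of log2(intensity + 16), fitted with limma over all genes and given with their standard error (SE). The offset of 16 understates changes of dim probe sets. Array medians lay between 101.4 and 106.2 in the ketamine group, 97.7 and 104.6 in the sleep-deprived group and 102.2 and 103.4 in the saline group. Within groups, arrays correlated at 0.986 to 0.995 across genes. No detection calls were used, so no member is called present or absent. As a guide to the dim range, 1088 odorant receptor genes, little expressed in cortex, had mean intensities of 5.28 to 114 (5th to 95th percentile). As a check of the tissue, the 7 cortical neuron markers measured were at 288 or more on all 9 arrays. One of them, the glutamate transporter gene Slc17a7, read 2811, 2965 and 2847 in the ketamine arrays, 2700, 2840 and 2693 in the sleep-deprived arrays and 2795, 2691 and 2900 in the saline arrays.

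With Benjamini-Hochberg adjustment over all 22180 genes in limma, 0 members had an adjusted p under 0.05 in any of the 3 comparisons. The background was 0% of all genes for ketamine against saline, 0% for sleep deprivation against saline and 0% for ketamine against sleep deprivation. The smallest adjusted p of a member was 0.87, 1 and 0.376 in these 3 comparisons, in that order. With array weights in limma, 4 members (Col27a1, Col3a1, Lama1 and Lamc1) passed for ketamine against saline, as did 1439 of all genes. At an unadjusted p under 0.05, ketamine against saline had 0 members higher, where the background was 2.21%, and 1 member lower, where it was 2.35%. Sleep deprivation against saline had 0 members higher and 0 lower, against backgrounds of 1.8% and 1.72%. Ketamine against sleep deprivation had 6 members higher, 11.1% of the 54 against a background of 5.1%, and 1 member lower, 1.85% against 4.38%. These 7 differences fail the adjustment and are given below as measured values. Of the 6 higher members, 5 (Col4a5, Col6a3, Col6a5, Col9a3 and Col11a2) had all 3 group means under 114, within the range of the odorant receptor probe sets. Of all 54 members, 24 did so.

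The laminin gamma 1 gene, Lamc1, showed the lowest level under ketamine of any laminin gene relative to both other groups. Gamma 1 is the gamma chain of most laminins, those of brain vessels included. Lamc1 (probe set 17228164) read 330, 279 and 257 in the ketamine arrays, 384, 404 and 343 in the sleep-deprived arrays and 353, 369 and 354 in the saline arrays. All 3 ketamine arrays lay below all 6 others, while the sleep-deprived and saline arrays overlapped. The means were 289 ± 37.4, 377 ± 31.4 and 359 ± 8.68 for the ketamine, sleep-deprived and saline arrays (SD, n = 3 each). The difference was -0.30 (SE 0.105, limma adjusted p = 0.87) for ketamine against saline. Against sleep deprivation, ketamine differed by -0.37 (SE 0.105, limma adjusted p = 0.376). For sleep deprivation against saline the difference was 0.07, with a 95% interval of -0.16 to 0.29. Without ketamine array 3, the lowest of the 9, the difference of ketamine from saline was -0.23, no longer at an unadjusted p under 0.05. In bulk tissue, fewer cells of a type and less RNA per cell cannot be told apart.

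The other gamma chain measured, Lamc3, known from the cortical surface and retina, did not follow Lamc1. It read 102, 102 and 103 in the ketamine arrays, 108, 99.4 and 110 in the sleep-deprived arrays and 105, 101 and 109 in the saline arrays. The groups overlapped, with a ketamine minus saline difference of -0.035 (95% interval -0.22 to 0.15).

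Beta chains gave small differences. Lamb2, the beta chain of mature vessel and synaptic laminins, read 193, 196 and 189 in the ketamine arrays, 217, 223 and 209 in the sleep-deprived arrays and 210, 199 and 209 in the saline arrays. As with Lamc1, the ketamine arrays lay below all others, but the differences were smaller, -0.09 (SE 0.084) against saline and -0.15 (SE 0.084, limma adjusted p = 0.557) against sleep deprivation. Lamb1, the other beta chain of vessel and embryonic laminins, read 130, 129 and 145 in the ketamine arrays, 133, 171 and 122 in the sleep-deprived arrays and 141, 136 and 137 in the saline arrays. Its groups overlapped, and sleep-deprived array 2 was the highest. Lamb3, a chain of the laminin of skin, read 99.0, 93.9 and 85.2 in the ketamine arrays, 93.7, 76.0 and 89.7 in the sleep-deprived arrays and 91.8, 79.3 and 75.1 in the saline arrays, again with overlap.

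The 5 alpha chains, which carry the main binding sites for integrins and dystroglycan, differed between groups by no more than 0.11 in size on the log2 scale. Lama2, the chain of muscle and of the astrocyte side of brain vessels, read 159, 163 and 132 in the ketamine arrays, 144, 168 and 150 in the sleep-deprived arrays and 151, 161 and 154 in the saline arrays. Lama4, the chain of endothelial basement membranes, read 134, 121 and 113 in the ketamine arrays, 128, 131 and 121 in the sleep-deprived arrays and 122, 132 and 145 in the saline arrays. Neither separated the groups. Lama5, the other endothelial alpha chain, read 116, 116 and 128 in the ketamine arrays, 108, 105 and 120 in the sleep-deprived arrays and 106, 122 and 120 in the saline arrays. Lama1, a chain of the pial surface and of early development, read 120, 97.5 and 115 in the ketamine arrays, 122, 121 and 106 in the sleep-deprived arrays and 127, 110 and 126 in the saline arrays. Both overlapped across groups, as did Lama3, an epithelial chain, at 155, 145 and 152 in the ketamine arrays, 132, 157 and 138 in the sleep-deprived arrays and 140, 151 and 156 in the saline arrays.

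**Figure D1:**
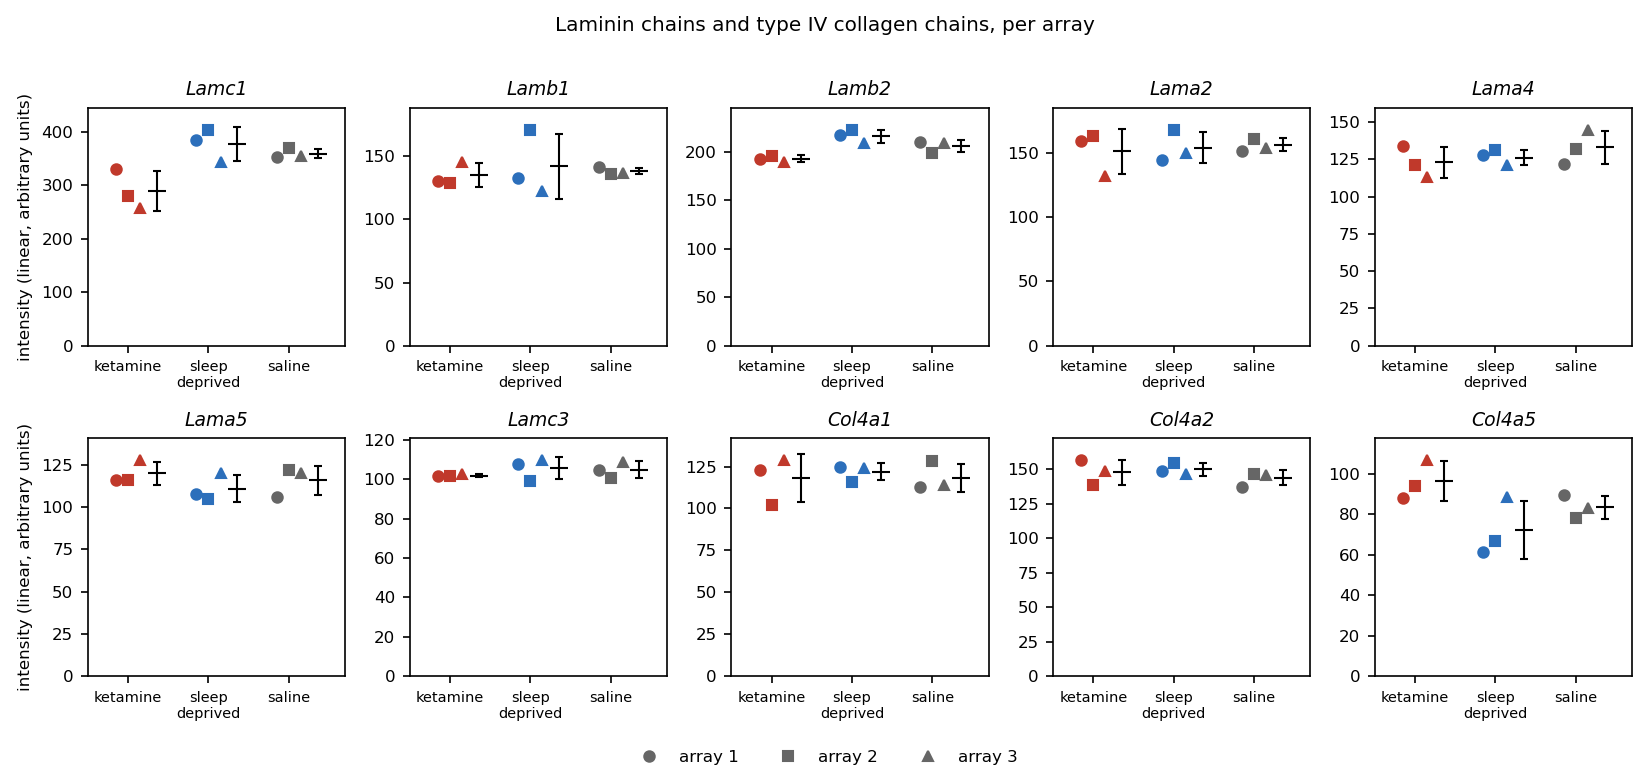
Intensity of 7 laminin chains and 3 type IV collagen chains on each array (linear axis starting at 0, arbitrary units; circle, square and triangle are arrays 1, 2 and 3 of a group; bars are mean ± SD of the 3 arrays). The 3 ketamine arrays of Lamc1, at 257 to 330, lie below the 6 others, and those of Lamb2, at 189 to 196, do so by a smaller margin.

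The type IV chains of the common vessel net, Col4a1 and Col4a2, overlapped between all groups. Col4a1 read 123, 102 and 129 in the ketamine arrays, 125, 116 and 124 in the sleep-deprived arrays and 113, 128 and 114 in the saline arrays. Col4a2 read 157, 139 and 149 in the ketamine arrays, 149, 155 and 147 in the sleep-deprived arrays and 137, 147 and 146 in the saline arrays. For ketamine against saline, Col4a1 differed by -0.004 (95% interval -0.22 to 0.21) and Col4a2 by 0.04 (95% interval -0.15 to 0.23). Against sleep deprivation, the ketamine intervals were -0.26 to 0.18 for Col4a1 and -0.21 to 0.17 for Col4a2. These intervals bound the difference and do not show that the levels were equal.

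Col4a5, whose chain joins the kidney filter and other specialised membranes, showed the highest positive difference between ketamine and sleep deprivation of all members. It read 87.9, 94.1 and 107 in the ketamine arrays, 61.6, 66.9 and 88.5 in the sleep-deprived arrays and 89.4, 78.3 and 83.0 in the saline arrays. Sleep-deprived arrays 1 and 2 were the lowest of the 9, while array 3 of that group lay among the saline and ketamine arrays. Ketamine differed from sleep deprivation by 0.36 (SE 0.117, limma adjusted p = 0.425). Against saline, the differences were 0.17 (SE 0.117) for ketamine and -0.18 (SE 0.117) for sleep deprivation. Col4a6, its neighbour, read 97.5, 87.8 and 110 in the ketamine arrays, 95.9, 74.1 and 92.3 in the sleep-deprived arrays and 101, 101 and 90.7 in the saline arrays. Its ketamine minus sleep-deprived difference was 0.15 (SE 0.109), and the groups overlapped. Col4a3 and Col4a4, the remaining chains, differed by 0.23 (SE 0.148) and 0.08 (SE 0.102) in that comparison.

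Col4a5 and Col4a6 lie head to head on the X chromosome, so the bases upstream of each are shown as separate windows that do not overlap. RefSeq sequence upstream of each start (GRCm38.p6) is in lower case, with matches to a CCAAT box (CCAAT or its reverse complement) in capitals. Col4a5 is chrX:141475169-141475369 on the plus strand and Col4a6 is chrX:141474096-141474326 on the minus strand.
Col4a5: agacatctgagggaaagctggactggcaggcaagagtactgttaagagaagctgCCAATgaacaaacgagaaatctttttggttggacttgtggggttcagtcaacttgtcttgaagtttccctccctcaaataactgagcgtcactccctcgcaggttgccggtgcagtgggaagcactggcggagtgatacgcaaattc
Col4a6: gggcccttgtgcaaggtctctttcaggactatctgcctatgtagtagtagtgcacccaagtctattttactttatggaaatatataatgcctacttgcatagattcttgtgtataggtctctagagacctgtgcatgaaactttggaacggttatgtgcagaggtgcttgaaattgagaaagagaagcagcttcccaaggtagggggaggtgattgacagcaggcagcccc
The Col4a5 stretch holds 1 match and the Col4a6 stretch holds 0.

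Type VI collagen, the beaded filament of connective tissue and vessel walls, had 4 chains apart from saline under ketamine. All 3 ketamine arrays lay above all 3 saline arrays in 4 of its 6 chains (Col6a1, Col6a2, Col6a3 and Col6a5), none of them past the adjusted threshold, where 6.48% of all genes lay above saline in this way. The gap was narrow for Col6a3, with a lowest ketamine value of 84.5 and a highest saline value of 84.4. For Col6a2 these values were 126 and 125. Col6a1 read 275, 287 and 340 in the ketamine arrays, 290, 320 and 272 in the sleep-deprived arrays and 261, 247 and 270 in the saline arrays. It was the single member above saline on every array of both other groups, by 0.20 (SE 0.103, limma adjusted p = 0.87) for ketamine and 0.17 (SE 0.103, limma adjusted p = 1) for sleep deprivation. These 2 comparisons share the saline arrays. A second Col6a1 probe set gave 0.13 and 0.12 for the same comparisons.

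Col6a3 and Col6a5 had another profile, low on sleep-deprived arrays 1 and 2. Col6a3, the long chain that assembles with the Col6a1 and Col6a2 chains, read 84.5, 95.3 and 105 in the ketamine arrays, 68.5, 69.1 and 90.7 in the sleep-deprived arrays and 84.4, 81.3 and 84.4 in the saline arrays. Col6a5, a related long chain, read 96.1, 95.6 and 106 in the ketamine arrays, 69.6, 76.9 and 90.5 in the sleep-deprived arrays and 82.3, 89.9 and 87.4 in the saline arrays. The ketamine arrays of Col6a5 lay above all other arrays, whereas those of Col6a3 overlapped with sleep-deprived array 3. Ketamine against sleep deprivation gave 0.27 (SE 0.110, limma adjusted p = 0.485) for Col6a3 and 0.28 (SE 0.100, limma adjusted p = 0.455) for Col6a5.

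The main fibrillar collagens of meninges and vessel walls overlapped between the groups. Col1a1, of type I collagen, read 147, 162 and 159 in the ketamine arrays, 125, 141 and 151 in the sleep-deprived arrays and 177, 140 and 168 in the saline arrays. Col1a2, its partner chain, read 149, 171 and 184 in the ketamine arrays, 162, 162 and 172 in the sleep-deprived arrays and 185, 157 and 182 in the saline arrays. Col3a1, of the type III collagen of distensible walls, read 111, 106 and 144 in the ketamine arrays, 112, 117 and 148 in the sleep-deprived arrays and 131, 138 and 138 in the saline arrays. Ketamine minus saline was -0.044 for Col1a1 (95% interval -0.27 to 0.18), -0.053 for Col1a2 (-0.27 to 0.17) and -0.16 for Col3a1 (-0.42 to 0.10). The second probe set of Col1a2 had the opposite sign against saline, at 0.12 for ketamine and 0.07 for sleep deprivation, so no direction is given for this gene. Without ketamine array 3 the Col3a1 difference was -0.28, at an unadjusted p under 0.05. Array 3 was the highest of its group for Col3a1 in both the ketamine and the sleep-deprived mice.

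Among the minor fibrillar chains, Col11a2, Col27a1 and Col24a1 lay above saline on every ketamine array. They were 27.3% of the 11 fibrillar collagens, where 6.48% of all genes lay above saline in this way. Col11a2 and Col24a1 had all 3 group means under 114, within the range of the odorant receptor probe sets. Col11a2, which limits fibril width in cartilage, read 105, 105 and 112 in the ketamine arrays, 74.0, 85.8 and 106 in the sleep-deprived arrays and 93.1, 89.0 and 92.8 in the saline arrays. Ketamine lay above saline without overlap, and above sleep deprivation by 0.25 (SE 0.108, limma adjusted p = 0.5) with overlap. Col27a1, a cartilage collagen, read 191, 211 and 212 in the ketamine arrays, 159, 159 and 205 in the sleep-deprived arrays and 168, 177 and 181 in the saline arrays. Col24a1, described in mouse bone, read 80.0, 87.4 and 89.4 in the ketamine arrays, 72.8, 73.4 and 79.3 in the sleep-deprived arrays and 70.6, 76.8 and 75.4 in the saline arrays. The ketamine arrays of Col24a1 lay above all others, and the ketamine minus saline differences were 0.17 (SE 0.088) for Col24a1 and 0.20 (SE 0.106) for Col27a1.

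Type V chains and Col11a1, which nucleate thin fibrils, overlapped between ketamine and saline. Col5a1 read 153, 149 and 173 in the ketamine arrays, 136, 141 and 138 in the sleep-deprived arrays and 151, 178 and 136 in the saline arrays. Col5a2 read 102, 101 and 129 in the ketamine arrays, 89.8, 95.4 and 119 in the sleep-deprived arrays and 105, 91.5 and 108 in the saline arrays. Of Col5a1, Col5a2, Col5a3 and Col11a1, only Col5a1 held all ketamine arrays above all sleep-deprived arrays. Col5a3 read 124, 129 and 157 in the ketamine arrays, 104, 103 and 159 in the sleep-deprived arrays and 146, 143 and 138 in the saline arrays, and its sleep-deprived minus saline difference of -0.23 (SE 0.139) was the lowest of all members in that comparison. Col11a1 read 64.8, 64.6 and 65.4 in the ketamine arrays, 52.5, 57.5 and 66.1 in the sleep-deprived arrays and 57.8, 69.0 and 65.4 in the saline arrays.

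Fibril-associated collagens sit on the surface of fibrils. Col9a2 and Col9a3, type IX chains known from cartilage, were the 2 at an unadjusted p under 0.05, both higher for ketamine against sleep deprivation. They were 22.2% of the 9, where 5.1% of all genes were higher at that p. Col9a2 read 210, 205 and 275 in the ketamine arrays, 175, 147 and 230 in the sleep-deprived arrays and 203, 187 and 195 in the saline arrays. Col9a3 read 104, 102 and 121 in the ketamine arrays, 73.5, 89.5 and 99.7 in the sleep-deprived arrays and 99.7, 106 and 92.0 in the saline arrays. Array 3 was the highest of both groups for each gene, and only Col9a3 separated ketamine from sleep deprivation. Ketamine minus sleep deprivation was 0.31 (SE 0.142, limma adjusted p = 0.527) for Col9a2 and 0.28 (SE 0.111, limma adjusted p = 0.484) for Col9a3. The value of Col9a2 was 0.047 with ketamine array 3 and sleep-deprived array 2 left out together. Col9a1, the remaining type IX chain, differed by 0.12 (SE 0.122).

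The upstream bases of Col9a2 and Col6a3 are given as 2 examples of members at an unadjusted p under 0.05 (RefSeq, GRCm38.p6). Capitals mark GC boxes (GGGCGG or its reverse complement). Col9a2 is chr4:121039316-121039565 on the plus strand and Col6a3 is chr1:90844002-90844221 on the minus strand.
Col9a2: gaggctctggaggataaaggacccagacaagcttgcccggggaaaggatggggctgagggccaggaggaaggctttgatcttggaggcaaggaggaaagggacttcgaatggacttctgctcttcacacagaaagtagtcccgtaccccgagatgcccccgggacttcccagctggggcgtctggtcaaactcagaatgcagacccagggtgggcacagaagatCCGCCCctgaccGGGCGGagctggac
Col6a3: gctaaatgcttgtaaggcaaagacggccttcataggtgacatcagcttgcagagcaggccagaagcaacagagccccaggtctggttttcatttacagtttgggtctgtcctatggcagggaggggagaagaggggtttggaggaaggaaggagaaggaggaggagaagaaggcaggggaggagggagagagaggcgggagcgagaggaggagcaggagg
Col9a2 holds 2 GC boxes and Col6a3 holds 0. In the 250 bases upstream of the start, searched on both strands, 23 of the 40 members with a window (57.5%) held GGGCGG, against 35.4% of the 27025 genes with a window. CCAAT occurred in 14 of the 40 (35.0%, against 37.5% of genes), TATAAA in 5 (12.5%, against 14.3%) and CACGTG in 0 (against 6.9%). None of the 4 motifs lies within another, and a match is a description of the letters, not of a bound site.

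Other fibril-associated chains overlapped across the groups. Col12a1, of dense connective tissue, read 141, 157 and 115 in the ketamine arrays, 135, 150 and 148 in the sleep-deprived arrays and 133, 148 and 108 in the saline arrays. Col16a1 read 135, 139 and 171 in the ketamine arrays, 147, 114 and 150 in the sleep-deprived arrays and 144, 144 and 137 in the saline arrays. Col19a1, expressed by cortical interneurons and involved in synapse formation in mouse brain, read 152, 139 and 133 in the ketamine arrays, 133, 145 and 150 in the sleep-deprived arrays and 156, 158 and 145 in the saline arrays. Col19a1 differed from saline by -0.10 (95% interval -0.30 to 0.09) under ketamine and by -0.09 (-0.29 to 0.10) under sleep deprivation.

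Of the 4 transmembrane collagens, all were higher under ketamine than under sleep deprivation (median 0.14), and none reached an unadjusted p under 0.05. Col25a1, a neuronal collagen that binds amyloid beta, read 178, 171 and 168 in the ketamine arrays, 131, 192 and 169 in the sleep-deprived arrays and 170, 166 and 167 in the saline arrays. Col23a1 read 187, 187 and 238 in the ketamine arrays, 178, 167 and 198 in the sleep-deprived arrays and 193, 169 and 196 in the saline arrays. The groups overlapped for both, with ketamine minus saline differences of 0.04 (SE 0.115) for Col25a1 and 0.12 (SE 0.111) for Col23a1.

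Of the multiplexins, collagens of vessel basement membranes that carry sugar chains, Col15a1 was below saline under ketamine. Col15a1, which bridges the basement membrane to fibrils, read 83.0, 79.4 and 82.3 in the ketamine arrays, 84.6, 92.9 and 102 in the sleep-deprived arrays and 88.3, 94.1 and 95.5 in the saline arrays. All 3 ketamine arrays lay below the 6 others with a difference of -0.15 from saline (SE 0.091, limma adjusted p = 0.87) and of -0.16 from sleep deprivation (SE 0.091, limma adjusted p = 0.577). Col18a1, the source of the fragment endostatin, read 126, 113 and 144 in the ketamine arrays, 115, 98 and 147 in the sleep-deprived arrays and 134, 124 and 125 in the saline arrays, with overlap throughout.

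**Figure D2:**
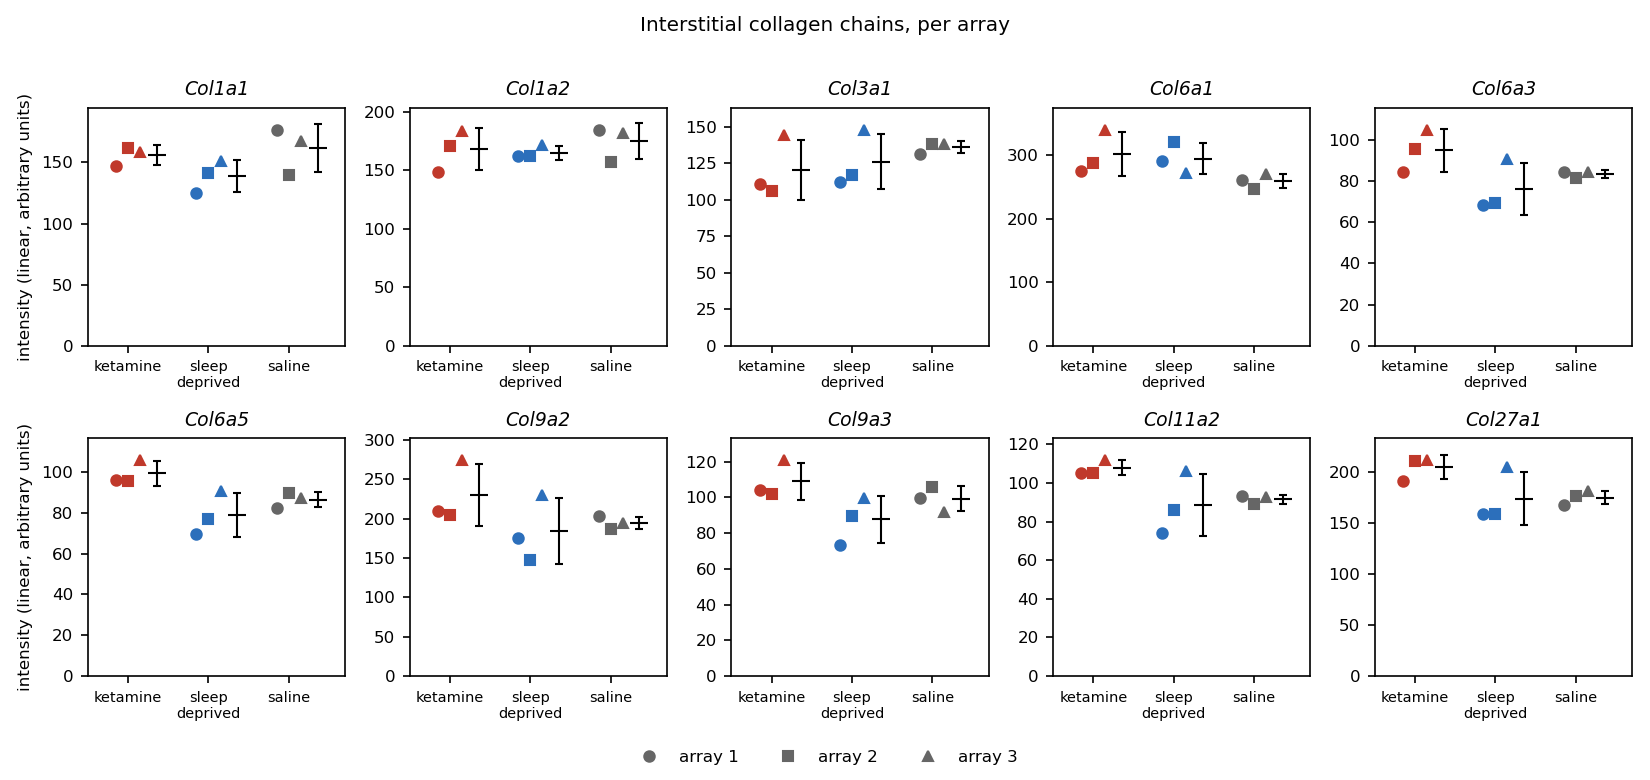
Intensity of 10 interstitial collagen chains on each array (linear axis starting at 0, arbitrary units; circle, square and triangle are arrays 1, 2 and 3 of a group; bars are mean ± SD of the 3 arrays). For Col9a2 and Col9a3 array 3 is the highest of both the ketamine and the sleep-deprived group (275 and 230 for Col9a2), and in Col6a5 the ketamine arrays lie above all others.

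The other 19 members, some of them mentioned above, were not on the list of named genes. They were chains of the same classes, short-chain collagens and type VII, XXVI and XXVIII chains. None of them reached an unadjusted p under 0.05 in any comparison. Among them Col7a1, of the anchoring fibrils of skin, had a ketamine minus saline difference of 0.16 (SE 0.116) without overlap. Col13a1, a transmembrane chain, had a larger one of 0.20 (SE 0.106) with overlap. Col8a2, of the corneal endothelial membrane, lay below saline without overlap in both groups, by -0.13 (SE 0.101) under ketamine and -0.17 (SE 0.101) under sleep deprivation.

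Counted by direction, collagens and laminins differed. Against saline, 32 of 44 collagens were higher under ketamine (median 0.075), beside 10064 of all 22180 genes (median -0.015). Under sleep deprivation 9 of 44 were higher (median -0.076), beside 10333 of all genes (median -0.009). Between ketamine and sleep deprivation, 37 of 44 were higher under ketamine (median 0.12), beside 10431 of all genes (median -0.012). The 10 laminins had 3, 5 and 3 members higher in those comparisons, with medians of -0.038, -0.005 and -0.041. The comparisons share groups, so their medians are not separate observations. Genes of a list share arrays and are not replicates.

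By arrays that do not overlap, ketamine lay above saline in 9 members (16.7%) where 6.48% of all genes did so, and below it in 4 members (7.41%) where 7.89% of genes did so. Sleep deprivation lay above saline in 1 member, 1.85% against a background of 3.57%, and below it in 2 members, 3.7% against 3.54%. Ketamine lay above sleep deprivation in 6 members (11.1%, background 4.53%) and below it in 3 members (5.56%, background 5.54%).

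**Figure D3:**
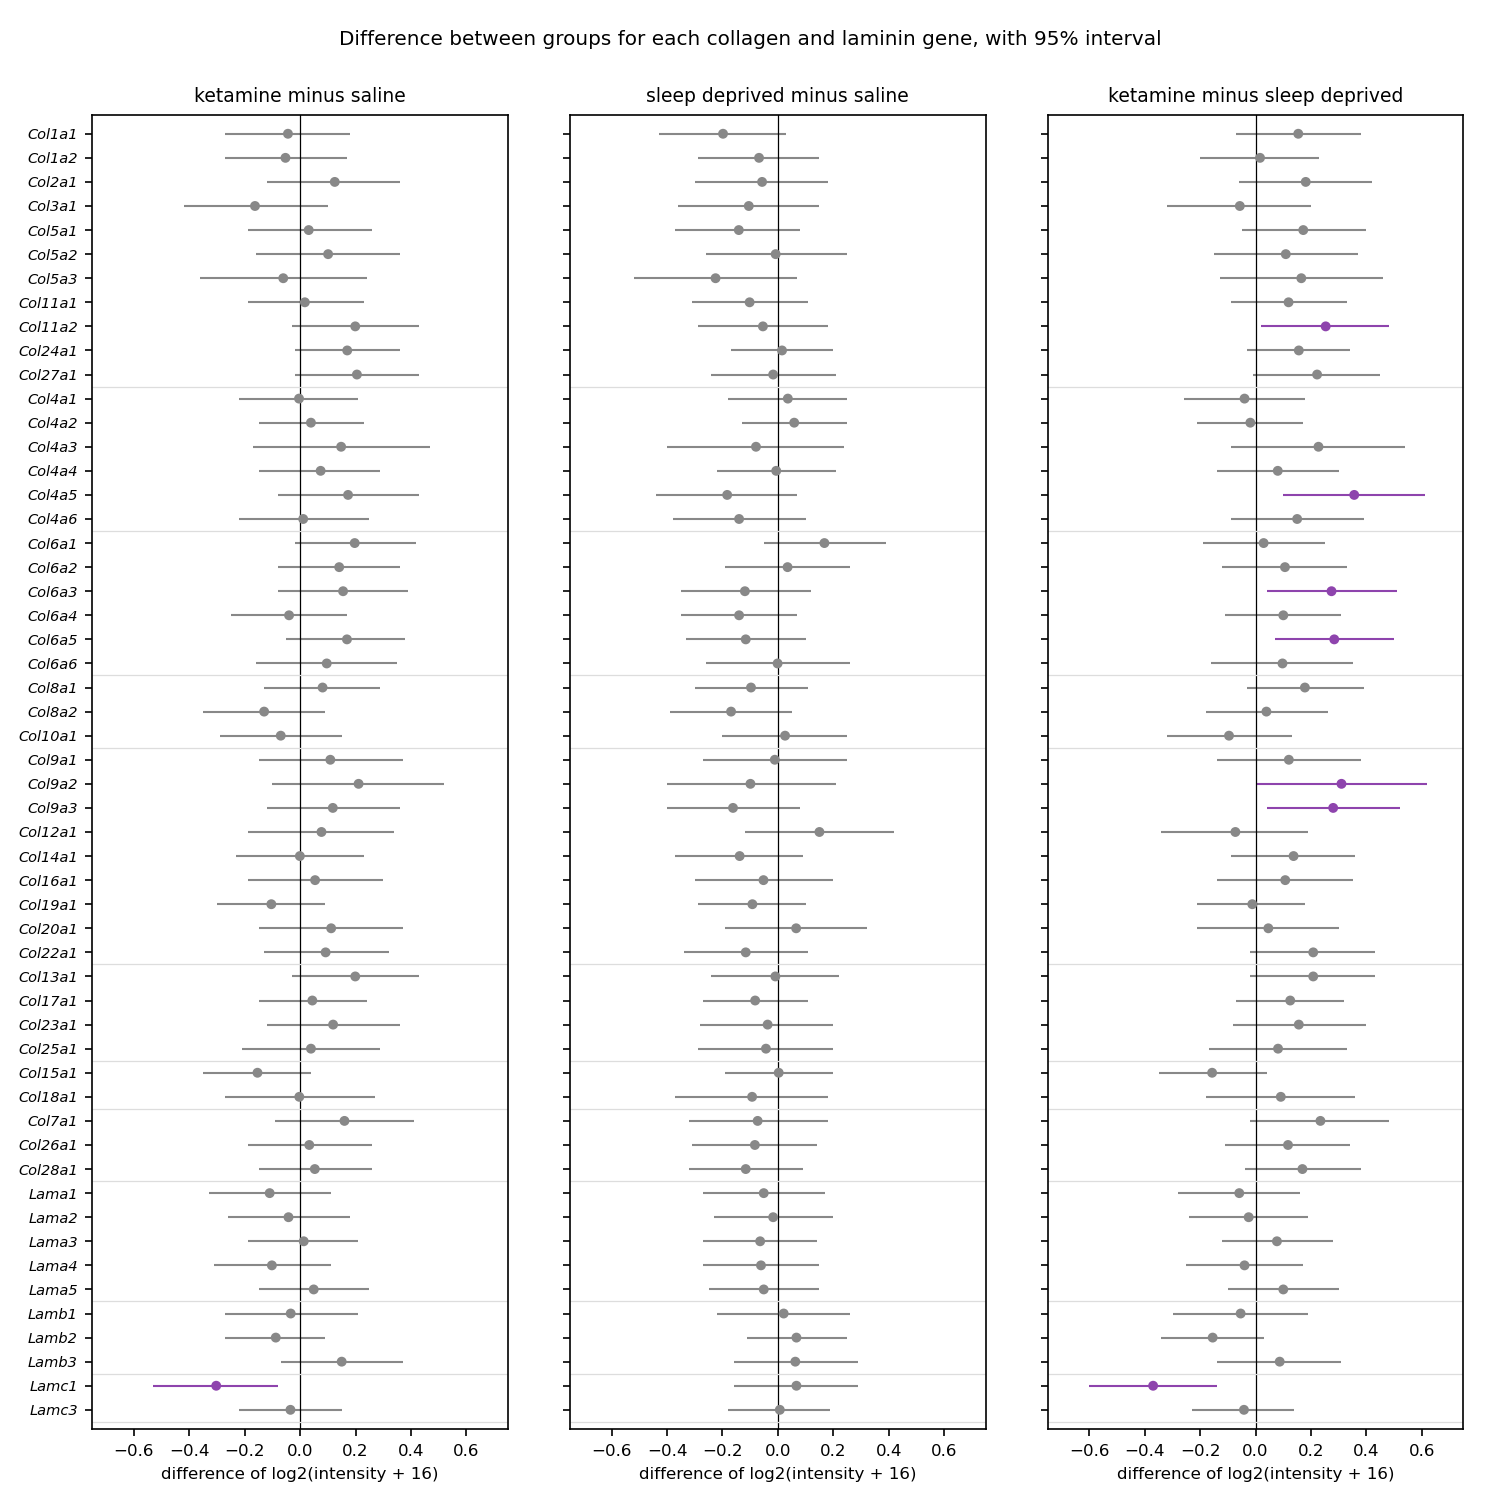
Difference of each of the 54 members in each comparison, on the log2(intensity + 16) scale, as a point with its 95% interval (horizontal axis; genes are grouped by class, divided by grey lines). Purple marks the members with an unadjusted limma p under 0.05, 1 in the left panel, 0 in the middle panel and 7 in the right panel, and none passed the adjusted threshold.

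The count of collagens depended on single arrays. Against the saline mean, the collagen median was 0.015, 0.035 and 0.16 on ketamine arrays 1, 2 and 3. It was -0.11, -0.17 and 0.08 on sleep-deprived arrays 1, 2 and 3, and 0.034, -0.019 and -0.002 on the saline arrays. Collagens above the saline mean numbered 27, 28 and 37 of 44 on the ketamine arrays, 9, 6 and 34 on the sleep-deprived arrays and 31, 20 and 22 on the saline arrays. Ketamine array 3 was the highest of its group in 33 of 44 collagens and sleep-deprived array 3 in 34, so the sleep-deprived group did not have a common direction. Ketamine array 3 also had the highest array median (106.2) and sleep-deprived array 2 the lowest (97.7). After quantile normalization, which gives every array the same distribution, the collagen median was 0.17 on ketamine array 3 and -0.11 on sleep-deprived array 2. With both arrays left out, 26 of 44 collagens were higher under ketamine than under sleep deprivation, with a median of 0.047. Lamc1 was then the single member at an unadjusted p under 0.05.

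Leaving out single arrays changed the count as well. Without sleep-deprived array 2, 22 of 44 collagens were above saline in that group, with a median of -0.016. Without sleep-deprived array 3, 5 of 44 were above, with a median of -0.13, and 7 members were at an unadjusted p under 0.05. For ketamine against sleep deprivation, the members at that p numbered 15 without sleep-deprived array 3, 4 without sleep-deprived array 2, 3 without sleep-deprived array 1 and 3 without ketamine array 3.

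**Figure D4:**
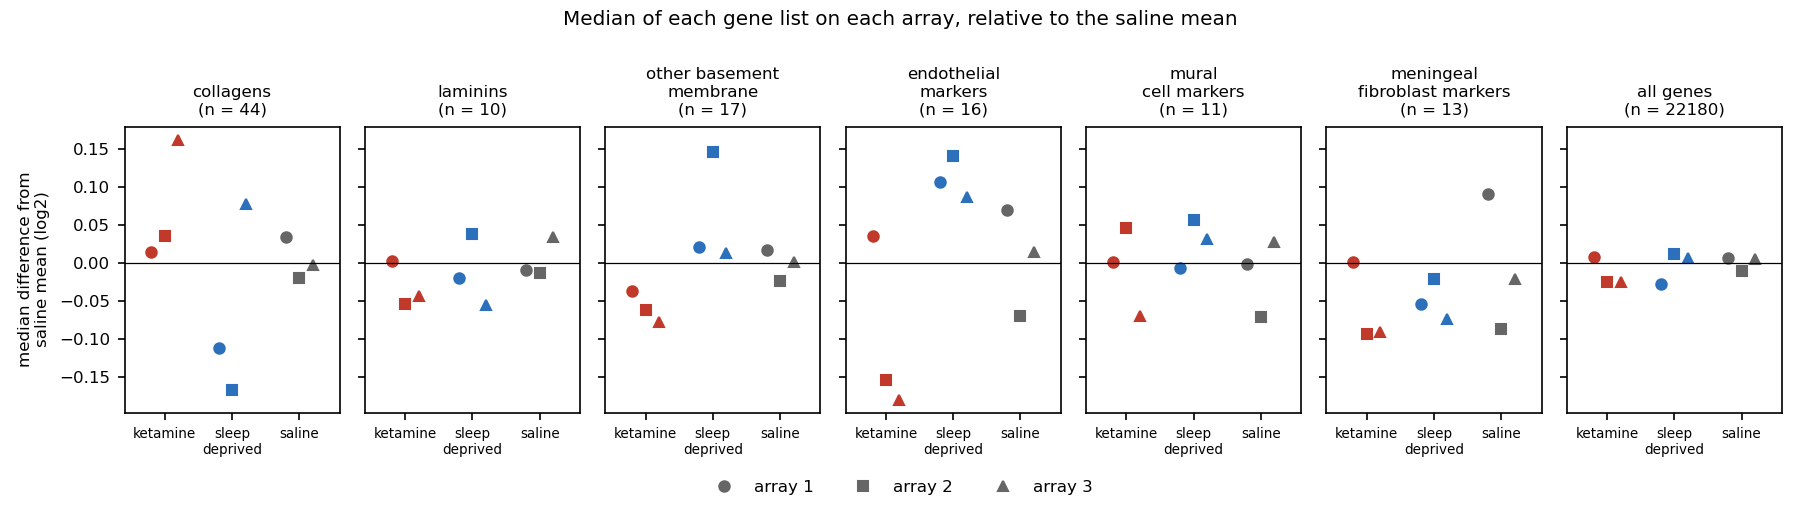
Median over each gene list of the difference from the saline mean, on the log2(intensity + 16) scale, for each of the 9 arrays (vertical axis; red is ketamine, blue sleep-deprived, grey saline; circle, square and triangle are arrays 1, 2 and 3). Collagen medians range between -0.17 and 0.16 across arrays, and endothelial markers are above 0 on the 3 sleep-deprived arrays.

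Partner proteins of the laminin net include nidogen, which links laminin to type IV collagen by binding the gamma 1 chain. Nid1 read 163, 145 and 128 in the ketamine arrays, 191, 210 and 176 in the sleep-deprived arrays and 205, 168 and 193 in the saline arrays. Like Lamc1, its 3 ketamine arrays lay below the 6 others, at -0.34 (SE 0.111, limma adjusted p = 0.87) against saline and -0.37 (SE 0.111, limma adjusted p = 0.396) against sleep deprivation. Nid2, the other nidogen, differed by -0.057 and 0.11 in these comparisons.

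Pxdn, the peroxidase that crosslinks type IV collagen, and Fn1, fibronectin, were higher in sleep-deprived than in other arrays. Pxdn read 334, 315 and 341 in the ketamine arrays, 413, 461 and 346 in the sleep-deprived arrays and 301, 315 and 309 in the saline arrays. Fn1 read 434, 437 and 407 in the ketamine arrays, 595, 538 and 545 in the sleep-deprived arrays and 488, 430 and 463 in the saline arrays. Sleep deprivation minus saline was 0.37 (limma adjusted p = 1) for Pxdn and 0.27 (limma adjusted p = 1) for Fn1. Npnt, nephronectin, an integrin ligand, differed by -0.37 (limma adjusted p = 0.87) for ketamine against saline, with overlap.

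Of the 17 other basement membrane genes, 4 were higher and 13 lower under ketamine than under saline (median -0.054), with 2 lower at an unadjusted p under 0.05 (2.35% of all genes). Under sleep deprivation 12 were higher than saline and 5 lower (median 0.02), with 2 higher at that p (1.8% of all genes). Ketamine against sleep deprivation gave 5 higher and 12 lower (median -0.096), with 3 lower at that p (4.38% of all genes). Perlecan (Hspg2) and agrin (Agrn), the heparan sulphate proteoglycans of the same membranes, differed by 0.049 and -0.046 for ketamine against saline.

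**Figure D5:**
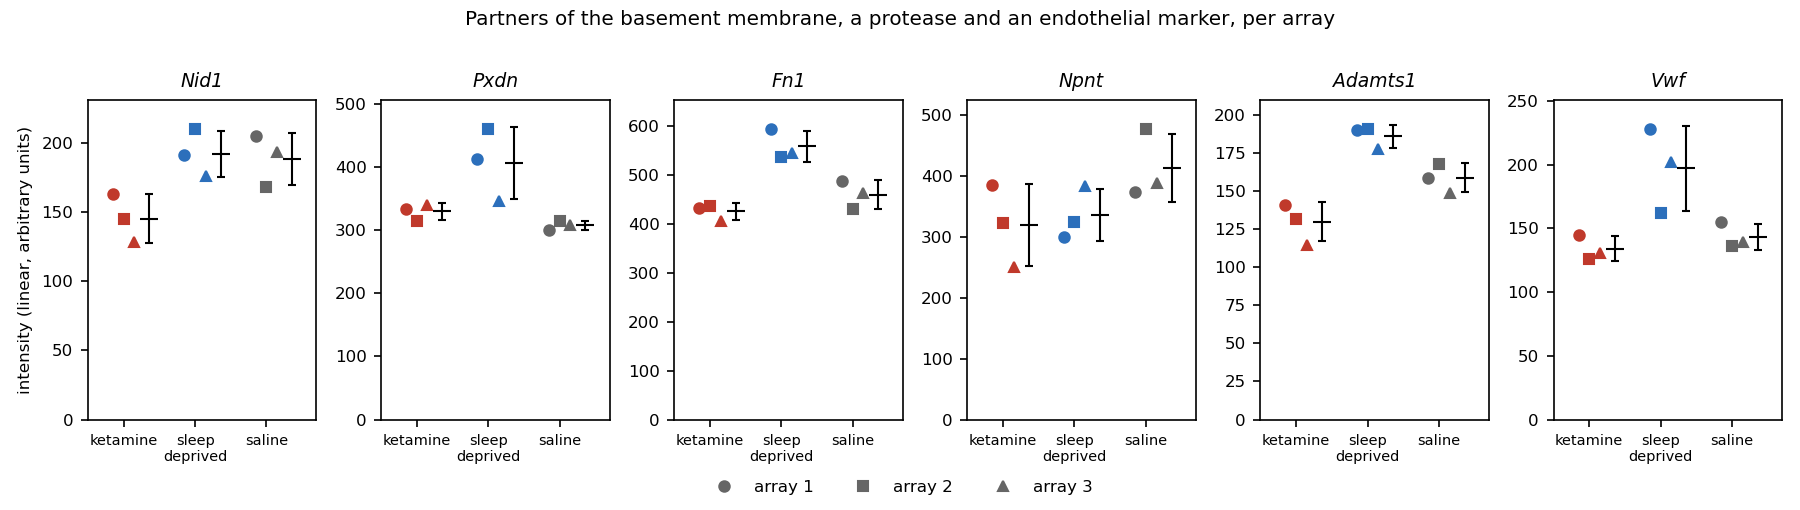
Intensity on each array of 4 partners of the basement membrane (Nid1, Pxdn, Fn1, Npnt), the protease Adamts1 and the endothelial marker Vwf (linear axis starting at 0, arbitrary units; circle, square and triangle are arrays 1, 2 and 3; bars are mean ± SD of the 3 arrays). Ketamine arrays of Nid1, at 128 to 163, lie below all others, and sleep-deprived arrays of Fn1, at 538 to 595, lie above all others.

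Of 26 genes that modify and secrete collagen, 6 were higher and 20 lower under ketamine than under saline (median -0.039), beside 12116 of all 22180 genes lower. Ketamine against sleep deprivation also gave 6 higher and 20 lower (median -0.085), beside 11749 of all genes lower. Sleep deprivation against saline gave 16 higher and 10 lower (median 0.021), beside 10333 of all genes higher. Loxl1, a lysyl oxidase that crosslinks elastic and collagen fibres, differed by -0.25 for ketamine against saline (limma adjusted p = 0.87). P4ha1, a prolyl hydroxylase subunit, differed by -0.29 for ketamine against sleep deprivation (limma adjusted p = 0.484). Serpinh1, the collagen chaperone, differed by -0.092 for ketamine against saline.

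The receptors of laminin and collagen numbered 18, with 7 higher and 11 lower for ketamine against saline, 11 and 7 for sleep deprivation against saline, and 7 and 11 for ketamine against sleep deprivation. Of all 22180 genes, 10064, 10333 and 10431 were higher in these comparisons, in that order. Itga6 and Itga3, laminin-binding integrin chains, were the 2 at an unadjusted p under 0.05, both lower in the last comparison. They were 11.1% of the 18, where 4.38% of all genes were lower at that p. Itga6 read 192, 166 and 145 in the ketamine arrays, 205, 209 and 191 in the sleep-deprived arrays and 198, 203 and 188 in the saline arrays, and differed by -0.25 (limma adjusted p = 0.487) from sleep deprivation. Itga3 differed by -0.26 there (limma adjusted p = 0.484).

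Endothelial markers were the cell type list with the most members at an unadjusted p under 0.05. Of 16 endothelial markers, 2 were higher and 14 lower under ketamine than under saline (median -0.099), and 15 were higher under sleep deprivation than under saline (median 0.12). Ketamine against sleep deprivation gave 0 higher and 16 lower (median -0.24), beside 11749 of all 22180 genes lower. Of the 16, 9 were lower at an unadjusted p under 0.05, where 4.38% of all genes were. Vwf, the clotting factor carrier, was among them at -0.50 (limma adjusted p = 0.335). On single arrays, 12, 1 and 1 of the 16 lay above the saline mean in the ketamine group, 13, 14 and 12 in the sleep-deprived group and 13, 2 and 9 in the saline group, so ketamine array 1 did not share the lower values of ketamine arrays 2 and 3. The summed endothelial level was 3343 to 3996 in the ketamine arrays, 4151 to 4281 in the sleep-deprived arrays and 3665 to 4024 in the saline arrays. Between ketamine and sleep deprivation these markers lay on the same side as Lamc1 and Nid1, and on the opposite side to 37 of the 44 collagens. Their part in the Lamc1 value was not tested.

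Meningeal and perivascular fibroblasts make fibrillar collagen. Of 13 of their markers, 5 were higher for ketamine against saline (median -0.069), 3 for sleep deprivation against saline (median -0.06) and 5 for ketamine against sleep deprivation (median -0.10). Ogn, osteoglycin, differed by -0.47 for ketamine against saline (limma adjusted p = 0.87). Slc22a6, a transporter of the meninges, differed by -0.27 for sleep deprivation against saline (limma adjusted p = 1). For ketamine against sleep deprivation, Slc22a6 (0.32) and Foxc2 (0.25) were higher and Ogn (-0.46) lower at an unadjusted p under 0.05. These were 15.4% of the 13 higher and 7.69% lower, where 5.1% and 4.38% of all genes were. The summed level of the 13 markers was 1946 to 2088 in the ketamine arrays, 2064 to 2144 in the sleep-deprived arrays and 2031 to 2415 in the saline arrays. No marker of any list was at 0.

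Mural cell markers, of pericytes and smooth muscle, summed to 3783 to 3823 in the ketamine arrays, 3830 to 4058 in the sleep-deprived arrays and 3619 to 3979 in the saline arrays. Of 11, 4 were higher under ketamine than under saline and 7 under sleep deprivation than under saline, beside 10064 and 10333 of all 22180 genes. Choroid plexus markers ranged widely within groups, with sums of 1063 to 1400 in the ketamine arrays, 840 to 1388 in the sleep-deprived arrays and 989 to 10038 in the saline arrays. Of 10, 2 were higher for ketamine against saline (median -0.075), 0 for sleep deprivation against saline (median -0.21) and 10 for ketamine against sleep deprivation (median 0.16), the side on which 37 of 44 collagens lay. Their medians per array were -0.22, -0.11 and -0.039 in the ketamine group, -0.24, -0.42 and -0.021 in the sleep-deprived group and -0.038, 0.20 and -0.15 in the saline group. Sleep-deprived array 3 was thus the highest of its group for these markers as for the collagens. Oligodendrocyte markers were also higher for ketamine against sleep deprivation in 7 of 7 (median 0.24), beside 10431 of all 22180 genes. Their list medians were 0.07, 0.50 and -0.27 on the ketamine arrays, -0.49, -0.034 and 0.032 on the sleep-deprived arrays and -0.002, 0.12 and -0.12 on the saline arrays. Astrocyte markers were lower under ketamine than under saline in 8 of 8 (median -0.10), beside 12116 of all 22180 genes. None was at an unadjusted p under 0.05. Against the saline mean, the astrocyte median was 0.009, -0.11 and -0.16 on ketamine arrays 1, 2 and 3. Ketamine array 1 thus did not share the lower values. On saline arrays 1, 2 and 3 the median was 0.095, -0.11 and 0.021, so saline array 2 was about as low as ketamine array 2. The ketamine and saline arrays overlapped for all 8 markers. The part of these cell types in the collagen values was not tested.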

How the data were processed

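Total RNA of 9 samples was hybridised to 9 Affymetrix arrays. The authors deposited linear intensity values of 41345 probe sets, made with PLIER 2.0 and Affymetrix Expression Console 1.1.1, per the submitters' processing notes. How background was corrected and arrays were normalized before deposit is not given in the sources used here. Of the probe sets, 23521 had 1 gene symbol, 1814 several and 16010 none. Symbols were updated through RefSeq for 23328 of them, and the brightest probe set was kept for each of the 22180 genes (1082 had several). From these deposited intensities, log2(intensity + 16) was computed here and tested by lmFit, contrasts.fit and eBayes of limma 3.58.1 (R 4.3.3), all 9 arrays in 1 fit with 6 residual degrees of freedom. On simulated data for ketamine against saline, the test recovered 100% of simulated log2 changes of 1 and 73% of changes of 0.5 among 22180 genes. It also called 12 unchanged genes. Changes below 0.5 were not simulated, and all member differences were below that size. The number of arrays limits the precision. The rule for named genes took fixed members of each class, every member at an unadjusted p under 0.05 and the 3 largest differences each way per comparison. The members and the lists were chosen with earlier results of these data known. Alternatives were other offsets, quantile normalization, median centring, a filter on dim probe sets, the mean of a gene's probe sets, limma-trend, array weights, a fit of the compared groups alone, a replicate block and each array left out.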

Additional observations from a re-analysis of the deposited data

How the results depend on the processing

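Of the 2094 values of the 35 named members over 20 settings, 1995 kept their call or, where not called, stayed within 1 standard error. Of the others, 31 lost and 44 gained an unadjusted p under 0.05, 24 moved further, and 0 changed sign while called. Some settings cannot move a difference. Leaving out an array of the third group, limma-trend, the replicate block and the fit of the compared groups alter only its SE and p. The mean of probe sets can differ only for the 3 members with several. The 1995 values are therefore not a measure of robustness. Lamc1 kept an unadjusted p under 0.05 in 19 of 20 settings for ketamine against saline. For ketamine against sleep deprivation, Lamc1 kept it in 20, Col4a5 in 19, Col6a5 in 18, Col9a3 in 17, Col6a3 in 15, Col11a2 in 12 and Col9a2 in 9. Leaving out ketamine array 3 and sleep-deprived array 2 together was chosen after seeing the data. Genes past adjusted p 0.05 (0 as reported) numbered 1439 for ketamine against saline with array weights, which gave most weight to ketamine array 2. For sleep deprivation against saline they numbered 1 with median centring, 3 with limma-trend, 1 with both arrays left out and 0 to 4 with 1 array left out. For ketamine against sleep deprivation they numbered 14 with an offset of 64, 5 with the dimmest probe sets left out, 15 with limma-trend, 42 with array weights, 1 with both arrays left out and 0 to 214 with 1 array left out, the highest without sleep-deprived array 3. Members at an unadjusted p under 0.05 for ketamine against saline (1 as reported) numbered 6 after quantile normalization, 2 with an offset of 1, 14 with array weights, 3 with only the 2 groups compared, 2 with both arrays left out and 1 to 3 with 1 array left out. For sleep deprivation against saline (0 as reported) they numbered 3 with array weights and 0 to 7 with 1 array left out. For ketamine against sleep deprivation (7 as reported) they numbered 11 with array weights, 1 with both arrays left out and 3 to 15 with 1 array left out. The laminin median was -0.045 for sleep deprivation against saline and 0.024 for ketamine against sleep deprivation with both arrays left out, and -0.045 to 0.004 and -0.055 to -0.004 with 1 array left out. The cause of these shifts was not tested. Array numbers recur across groups. Deviations from the group mean correlated at -0.201 to 0.444 between same-numbered arrays, the highest for array 3 of the ketamine and sleep-deprived groups. Between differently numbered arrays they correlated at -0.514 to 0.536. Whether arrays of 1 number share more than that number was not tested. With that number as a replicate block, 1, 0 and 9 members were at an unadjusted p under 0.05 in the 3 comparisons and 0 genes passed the adjusted threshold.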

Other observations

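Matrix proteases and their inhibitors were measured in the same arrays. Of 22 genes of matrix degradation, 12 were higher for ketamine against saline (median 0.013), 10 for sleep deprivation against saline (median -0.011) and 12 for ketamine against sleep deprivation (median 0.017). Adamts1, a secreted protease that cleaves proteoglycans, read 141, 132 and 115 in the ketamine arrays, 190, 191 and 178 in the sleep-deprived arrays and 159, 168 and 149 in the saline arrays. The 3 groups did not overlap. Adamts1 differed by -0.48 (SE 0.096, limma adjusted p = 0.242) for ketamine against sleep deprivation, -0.27 (limma adjusted p = 0.87) for ketamine against saline and 0.21 (limma adjusted p = 1) for sleep deprivation against saline. Timp4, an inhibitor of metalloproteases, read 213, 186 and 174 in the ketamine arrays, 244, 248 and 244 in the sleep-deprived arrays and 210, 210 and 202 in the saline arrays, a ketamine minus sleep-deprived difference of -0.34 (limma adjusted p = 0.375). Mmp17, a membrane-anchored metalloprotease, differed by 0.32 for sleep deprivation against saline (limma adjusted p = 1), and Ctsk, the collagen-cleaving cathepsin K, by -0.24 for ketamine against saline (limma adjusted p = 0.87). Mmp8, neutrophil collagenase, differed by 0.40 for ketamine against sleep deprivation (limma adjusted p = 0.396).

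Ttr, the transthyretin gene of choroid plexus, read 207, 467 and 138 in the ketamine arrays, 89.5, 104 and 428 in the sleep-deprived arrays and 1624, 8428 and 110 in the saline arrays.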
